A study of Mus musculus with 6 samples.

Results

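The genes described here encode the enzymes of gonadal steroid synthesis, a peptide hormone of steroid-producing cells and the nuclear estrogen receptors. The 10 genes are Star, Cyp11a1, Hsd3b1, Cyp17a1, Hsd17b3, Hsd17b1, Cyp19a1, Insl3, Esr1 and Esr2, and they were taken by name from the 35974 gene names in the data. All 10 were present, and the counts of their 35 transcripts were summed per gene. Strand-specific RNA-seq was performed on whole ovaries of C57Bl6j (C57BL/6J in the methods) mouse embryos at E15.5. The pregnant mice of the PB group received panobinostat (PB), an inhibitor of histone deacetylases, at 5 mg/kg by oral gavage between E6.5 and E15.5, and control dams were given the vehicle (DMSO in water) alone. The groups were taken from the sample titles and the treatment label, whereas the design text lists the control libraries as exposed mice, in the same words as the PB libraries. Each group held 3 pools of ovaries, and no transgene or deletion was involved. The number of ovaries in a pool differs between the sources, since the extraction protocol gives 4, the design text gives 6 to 8 and the methods give at least 8. The sources also differ on the schedule, since the annotation states the dose per day while the methods state alternate days.

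Steroid synthesis starts when STAR moves cholesterol into the mitochondrion, where CYP11A1 cuts its side chain to yield pregnenolone. HSD3B enzymes and CYP17A1 turn pregnenolone into androgens, 17-beta-HSD enzymes interconvert the weak and strong forms of the sex steroids, and CYP19A1 (aromatase) makes estrogens from androgens. In mice, the fetal testis is the main site of androgen synthesis, whereas the fetal ovary makes little steroid and the full pathway appears with the growing follicles after birth. Estrogens act through the receptors encoded by Esr1 and Esr2, which bind DNA as dimers.

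The pools held between 97165644 and 125985399 counts in total, and the correlation of log2 CPM between pools lay between 0.985 and 0.990 over the tested genes. Markers of pregranulosa cells summed to between 891.7 and 951 CPM in the control pools and between 843 and 951 CPM in the PB pools. Germ cell markers summed to between 678 and 878 CPM in control and between 559 and 1046 CPM in PB, with PB 2 the lowest. All 4 Y-linked genes examined together reached no more than 0.439 CPM in any pool. CPM is the count of a gene relative to the TMM-scaled total of its pool. In whole-tissue RNA, fewer cells of a type and less RNA per cell cannot be told apart. Genes were called where the FDR was 0.05 or less and the change was at least 2-fold.

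Levels of the genes were ordered per transcript length, as counts divided by the length of each transcript and scaled to the same total in every pool, as in TPM. Hsd3b1 was the most abundant with a mean per-length level of 31.6 ± 9.20 (SD, n = 6 pools), above 79.5% of the tested genes. Esr1 followed at 11.6 ± 0.674 and Esr2 at 8.96 ± 1.32, and the ranges of these receptors over the pools overlapped. Star at 3.13 ± 0.495 and Cyp17a1 at 3.07 ± 0.446 overlapped as well, both without reaching Esr2. Cyp11a1 had a per-length level of 2.09 ± 0.171 and Insl3 of 1.83 ± 1.06, again with overlapping ranges. Hsd17b1 lay lower at 0.425 ± 0.278, and the last 2 genes, Cyp19a1 at 0.0468 ± 0.0437 and Hsd17b3 at 0.0452 ± 0.0488, were close to the limit of detection. The gaps between Hsd3b1 and Esr1, between Esr2 and Star, between Cyp17a1 and Cyp11a1, between Insl3 and Hsd17b1 and between Hsd17b1 and Cyp19a1 were free of overlap over the 6 pools. These gaps compare neighbours in the order only. Insl3 ranged from 1.08 to 3.95 and so overlapped Star and Cyp17a1 too. The place of Esr2 in this order rested on an intronic fragment, described with the receptors, and its RefSeq transcripts alone had a per-length level of 0.599 ± 0.0422.

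**Figure D1:**
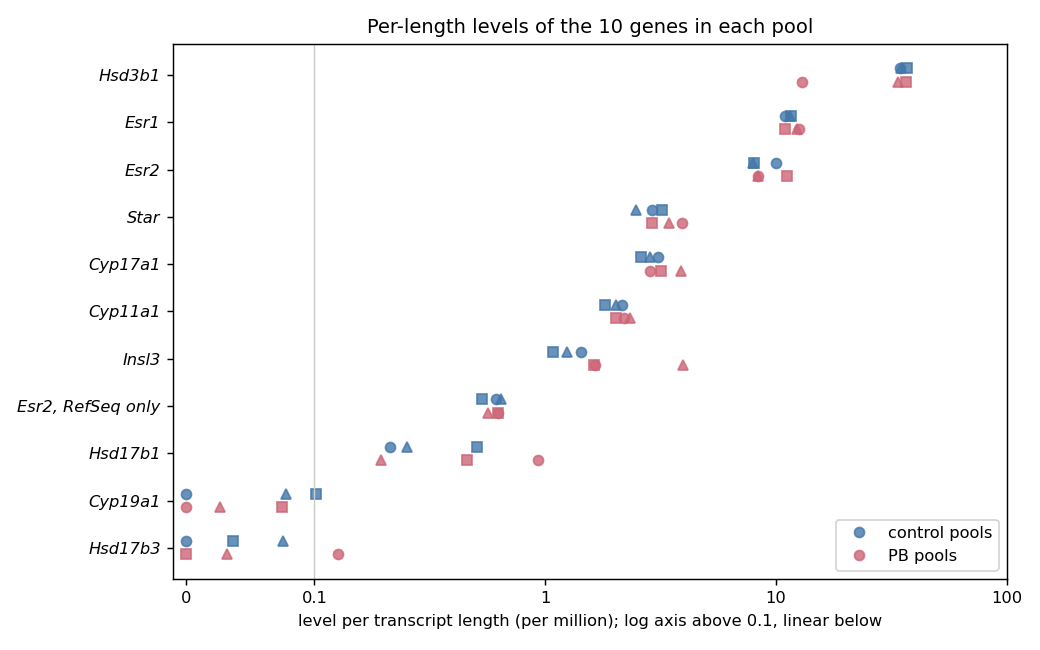
Per-length level (TPM-like scale, log axis above 0.1 and linear below it) of each gene in the 3 control pools (blue) and the 3 PB pools (red), with circles, squares and triangles for pools 1, 2 and 3. The genes span from 31.6 for Hsd3b1 to 0.0452 for Hsd17b3, and Esr2 drops to 0.599 when only its RefSeq transcripts are used.

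The comparison of PB with control ovaries asked whether gestational exposure changed these genes. None of the 9 members that passed the filter on low counts was called in edgeR's quasi-likelihood test, where 3 of 19435 genes (0.0154%) were called in all. At an unadjusted p under 0.05 the count was also 0 members, against 4.46% of all tested genes. DESeq2 called 0 of the 9 members to which it gave an adjusted p and 11 of 20392 genes in all (0.0539%). The FDR of the members lay between 0.888 and 0.991, and their median log2 fold change was 0.03, against 0.00197 over all tested genes. Groups did not overlap for 1 of the 9, Insl3, and PB was higher without overlap for 5.1% of the tested genes.

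**Figure D2:**
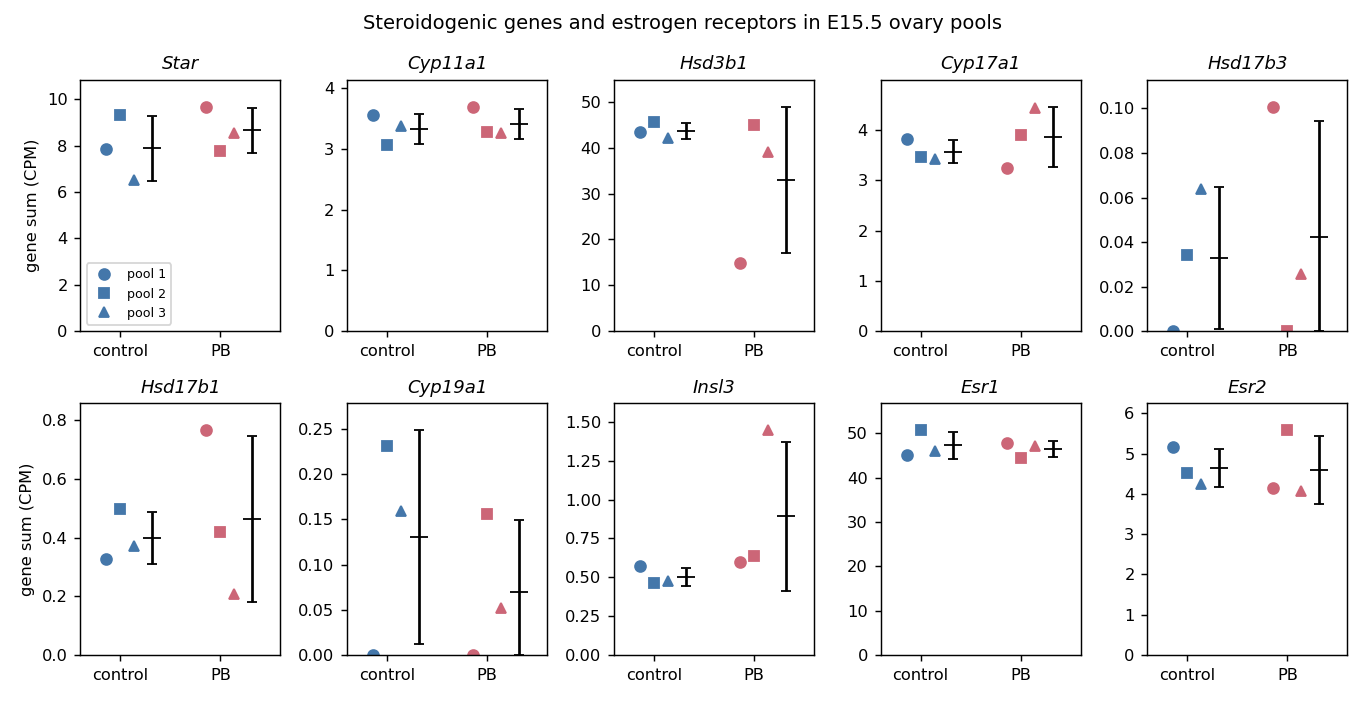
CPM of each gene in the 3 control pools (blue) and 3 PB pools (red), each panel with its own axis from 0, and the mean ± SD of each group in black (bars end at 0). The groups overlap in every panel except Insl3, and PB 1 stands apart for Hsd3b1 and PB 3 for Insl3.

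Star (chromosome 8, 25808513 to 25815982, plus strand, build mm10) encodes the cholesterol carrier of the first step. It had 7.84, 9.30 and 6.51 CPM in control 1, 2 and 3 and 9.68, 7.76 and 8.54 CPM in PB 1, 2 and 3. The groups overlapped, and the means were 7.88 ± 1.40 and 8.66 ± 0.966 CPM (SD, n = 3). Its fold change of 1.10 had a 95% interval from 0.850 to 1.42 (edgeR, FDR = 0.898), so a 2-fold change lay outside the interval.

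Cyp11a1 (chromosome 9, 57998029 to 58027023, plus strand) encodes the side-chain cleavage enzyme. It was at 3.55, 3.06 and 3.37 CPM in the control pools and at 3.69, 3.28 and 3.25 CPM in the PB pools. All 6 values lay close together, and the fold change was 1.02 with an interval from 0.837 to 1.25 (edgeR, FDR = 0.969). The counts came from transcripts with separate starts. XM_017313122.1, which begins at 57998029, held 75.5% of the counts, and NM_019779.3, which begins at 58015017, held the rest. The share of the upstream start was 76.5%, 64.4% and 82.6% in control and 96.7%, 75.5% and 58.7% in PB. The PB pools thus held both the highest and the lowest share, and no difference between the groups was found (exact permutation test, two-sided, p = 1, where 0.1 is the smallest p this design can reach). Both transcripts span the stretch from 58015017 on, so these shares depend on how StringTie assigned the reads. Because more counts were given to the upstream form, both promoters are shown, from RefSeq on GRCm38.p6. They are the 250 bases before each annotated start on the plus strand. Capitals mark the hexamer AGGTCA, the sequence bound by NR5A1 and other orphan nuclear receptors.
Cyp11a1 upstream promoter, chr9:57997774-57998023: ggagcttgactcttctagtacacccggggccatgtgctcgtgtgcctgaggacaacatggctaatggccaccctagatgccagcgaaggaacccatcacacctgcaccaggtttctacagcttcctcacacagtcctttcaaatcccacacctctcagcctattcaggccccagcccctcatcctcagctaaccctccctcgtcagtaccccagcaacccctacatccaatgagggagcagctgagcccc
Cyp11a1 downstream promoter, chr9:58014702-58014951: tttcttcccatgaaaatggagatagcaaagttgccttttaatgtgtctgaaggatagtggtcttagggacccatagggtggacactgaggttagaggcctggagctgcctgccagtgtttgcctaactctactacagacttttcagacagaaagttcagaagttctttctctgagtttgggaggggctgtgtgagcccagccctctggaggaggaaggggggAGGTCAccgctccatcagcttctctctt
AGGTCA, searched on both strands, lay 28 bases before 58014952, the RefSeq start from which the downstream window was taken, and was not found in the upstream window. The assembled NM_019779.3 begins farther downstream, at 58015017, so this distance is not counted from the transcript start in the counts. It occurred in 14% of the 32851 promoter windows of this length, and in 2 of the 11 windows listed for 7 of the members. The other match was in 1 of the Cyp19a1 windows.

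Hsd3b1 (chromosome 3, 98842355 to 98859794, minus strand) encodes the 3-beta-HSD of gonads and adrenal gland. It had 43.3, 45.6 and 42.2 CPM in the control pools and 14.8, 45.0 and 39.0 CPM in the PB pools. A single library, PB 1, was low, and PB 2 and PB 3 were within or just below the control range. The log2 fold change was -0.41 (SE 0.37, edgeR, FDR = 0.888), and without PB 1 it was -0.06 (FDR = 0.985). Star and Cyp11a1 had their highest values of the 6 pools in PB 1, while Cyp17a1 had its lowest there at 3.24 CPM. Of 10642 genes with a mean of at least 10 CPM, 12 (0.113%) were in PB 1 below 50% of the lowest other pool. This count was also 12 in PB 2 and in PB 3, and it was 9, 7 and 22 in control 1, 2 and 3. In control 2, StringTie gave 4251 of the counts to NM_001304800.1, which lacks an exon of 190 bases, and 1062 to NM_008293.4. NM_001304800.1 had 0 counts in each of the other 5 pools, where NM_008293.4 held all but 1 of the counts, so this division depends on the assignment of reads in a single library.

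Cyp17a1 (chromosome 19, 46667165 to 46673000, minus strand), which encodes the enzyme that commits the pathway to androgens, was at 3.83, 3.46 and 3.42 CPM in control and at 3.24, 3.90 and 4.44 CPM in PB. PB held the lowest and the highest value, and the fold change was 1.08 with an interval from 0.847 to 1.38 (edgeR, FDR = 0.905). An antisense gene, Gm41857, overlaps 84 of its 1841 exonic bases and had at most 8 counts in any pool.

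Among the members, Hsd17b3 and Cyp19a1, which act in the last steps to strong androgens and estrogens, were the scarcest. Hsd17b3 (chromosome 13, 64058274 to 64089262, minus strand), the testicular enzyme that makes testosterone, had 0, 4 and 6 counts in control and 10, 0 and 3 in PB. It did not pass the filter and was not tested with edgeR. Cyp19a1 (chromosome 9, 54165859 to 54229532, minus strand) had 0, 27 and 15 counts in control and 0, 16 and 6 counts in PB. In each group 1 pool was at 0, which allows up to 3 counts, or 0.0302 CPM in PB 1. The log2 fold change of -0.91 had an interval from -4.09 to 2.27 (edgeR, FDR = 0.911), so no change of Cyp19a1 was detectable at this depth. It was -2.23 without PB 2 and -0.19 without control 2. All of its counts were given to 1 of 7 listed transcripts, XM_006510805.3.

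Hsd17b1 (chromosome 11, 101077968 to 101081188, plus strand), which encodes the enzyme that makes estradiol from estrone, had 32, 58 and 35 counts in control and 76, 43 and 24 counts in PB. The PB pools covered a wider range than the control pools and enclosed it. Its log2 fold change of 0.21 (SE 0.49, interval -0.96 to 1.39, edgeR, FDR = 0.944) became -0.36 without PB 1. The shorter NM_010475.1 had 0, 55 and 0 counts in control and 73, 38 and 11 in PB, and XM_006532297.2 held the rest. The log2 fold change of NM_010475.1 was 1.33 with an interval from -4.03 to 6.69 (edgeR). It lies within the span of XM_006532297.2, so this division depends on how StringTie assigned the reads.

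Insl3 (chromosome 8, 71689252 to 71690577, plus strand) encodes a peptide hormone of fetal Leydig cells that drives testis descent. It had 56, 54 and 45 counts, or 0.570, 0.463 and 0.478 CPM, in the control pools. In PB 1, 2 and 3 it had 59, 65 and 168 counts, or 0.595, 0.636 and 1.44 CPM. Every PB pool was above every control pool, but PB 1 exceeded control 1 by only 3 counts and the difference came mostly from PB 3. The log2 fold change was 0.83 (SE 0.39, interval -0.11 to 1.76, edgeR, FDR = 0.888), and 0.29 without PB 3 (FDR = 1.00). Of the 2 genes of the fetal Leydig list that are no members, Ren1 was also highest in PB 3, with 155 counts against 42 to 80 in the other pools, whereas Lhcgr was lowest there, with 3.08 CPM against 4.33 to 5.86 CPM. Star, Cyp11a1 and Hsd3b1 were not highest there, while Cyp17a1 was. The part of these cells in the Insl3 values was not tested.

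The Insl3 count also has a limit from its position. Of its 587 exonic bases, 406 are shared on the same strand with the last exon of Jak3 NM_010589.6, a gene with 8.02 to 9.69 CPM, so reads in the shared bases could be given to either gene. When the transcripts were grouped by StringTie locus, which joins Insl3 with Jak3, the log2 fold change of the locus was -0.04 (FDR = 0.934). Jak3 had far more counts than Insl3, so this value cannot show a change of Insl3 alone.

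**Figure D3:**
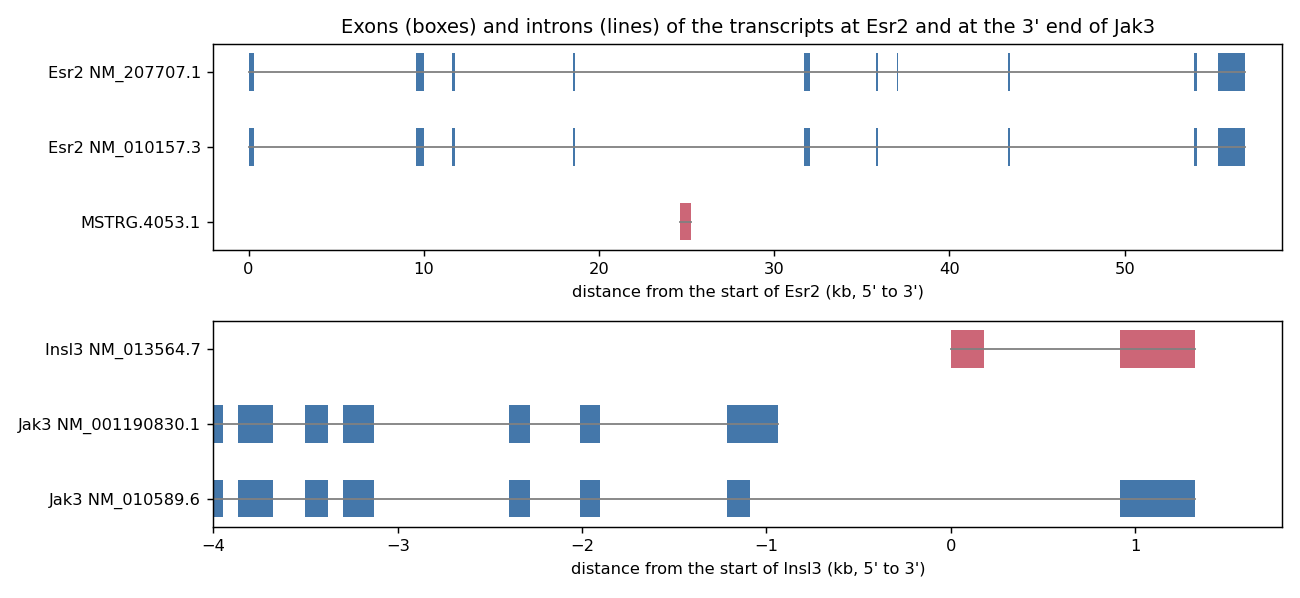
Exons (boxes) and introns (lines) of Esr2 (top) and of Insl3 with the end of Jak3 (bottom), in kb from the start of Esr2 and of Insl3. The unspliced fragment MSTRG.4053.1 (red, top) lies between exons 4 and 5 of Esr2, and the second Insl3 exon (red, bottom) coincides with the last exon of Jak3 NM_010589.6 while Jak3 NM_001190830.1 ends before Insl3.

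Esr1 (chromosome 10, 4611989 to 5005633, plus strand) encodes estrogen receptor alpha. It had 45.2, 50.7 and 46.0 CPM in control and 47.8, 44.5 and 47.1 CPM in PB. The groups overlapped within a narrow band, and the fold change of 0.982 had an interval from 0.884 to 1.09 (edgeR, FDR = 0.949). This was the most precise estimate among the 9 tested members. Transcripts that begin at 4611989 held 72.8% of the Esr1 counts and NM_001302531.1, which begins at 4710158, held 25.9%. The share of the distal start was 88.1%, 63.0% and 60.5% in control and 75.7%, 77.6% and 74.2% in PB. The 3 PB pools lay inside the control range (exact permutation test, two-sided, p = 0.5, smallest possible 0.1). The main transcripts of both starts run on to 5005633, so these shares depend on how StringTie assigned the reads. Since counts were given to both starts in every pool, the 250 bases before each are shown from RefSeq (GRCm38.p6, plus strand). All are in lower case because neither holds AGGTCA or the estrogen response element GGTCANNNTGACC on either strand.
Esr1 distal promoter, chr10:4611739-4611988: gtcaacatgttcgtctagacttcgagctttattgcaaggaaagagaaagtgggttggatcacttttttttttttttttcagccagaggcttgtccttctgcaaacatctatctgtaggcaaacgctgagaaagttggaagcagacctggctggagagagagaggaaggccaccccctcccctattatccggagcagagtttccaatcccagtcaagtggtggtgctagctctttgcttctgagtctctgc
Esr1 proximal promoter, chr10:4709908-4710157: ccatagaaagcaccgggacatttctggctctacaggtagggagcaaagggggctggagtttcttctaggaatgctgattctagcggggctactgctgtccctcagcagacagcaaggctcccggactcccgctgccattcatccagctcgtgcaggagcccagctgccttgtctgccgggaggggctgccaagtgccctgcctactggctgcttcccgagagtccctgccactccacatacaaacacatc
The estrogen response element occurred in 0.0639% of all 32851 windows and in 0 of the 11 windows of the members. A search of this length says only that these letters are not in these windows.

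Esr2 (chromosome 12, 76120419 to 76177259, minus strand) encodes estrogen receptor beta, the form best known from granulosa cells. It had 5.16, 4.53 and 4.25 CPM in control and 4.13, 5.58 and 4.07 CPM in PB. PB held both the lowest values and the highest value, and the fold change was 0.989 with an interval from 0.757 to 1.29 (edgeR, FDR = 0.991). Most of these counts did not come from the receptor's exons. The assembled fragment MSTRG.4053.1 is unspliced, spans 596 bases (chromosome 12, 76152034 to 76152629) and lies in the intron between exons 4 and 5 of the 10 exons of NM_207707.1, 5972 bases from the exon upstream and 6490 bases from the exon downstream. It held 71.4% of the Esr2 counts, with 73.2%, 71.4% and 67.2% in control and 68.8%, 75.1% and 70.8% in PB. The ranges of this share overlapped between the groups (exact permutation test, two-sided, p = 0.8, smallest possible 0.1). The fold change above thus describes mostly the fragment. With RefSeq-matching transcripts only, the log2 fold change of Esr2 was -0.077 (edgeR, FDR = 0.938).

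The spliced Esr2 counts were divided between forms that differ by an exon. NM_207707.1 includes this exon and had 131, 151 and 2 counts in control and 128, 91 and 138 counts in PB. NM_010157.3 skips it and had 5, 0 and 129 counts in control and 0, 51 and 0 counts in PB. In each pool except PB 2 nearly all spliced counts went to a single form, which was the skipping form in control 3. The forms differ by 54 bases only, so this division depends on how StringTie assigned the reads. A switch of exon use in control 3 cannot be read from it. The share of the including form was 65.9% ± 55.8 in control and 88.0% ± 20.7 in PB (SD, n = 3, exact permutation test, p = 0.7). The exon encodes 18 codons of the ligand-binding domain and keeps the reading frame. It is printed because it is the whole difference between these forms, in capitals between 30 bases of each neighbouring coding exon, on the minus strand, from a GENCODE transcript on GRCm38.
Esr2 alternative exon, chr12:76140198-76140251: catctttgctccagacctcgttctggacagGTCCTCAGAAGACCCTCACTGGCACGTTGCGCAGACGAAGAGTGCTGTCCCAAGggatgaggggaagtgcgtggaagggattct

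**Figure D4:**
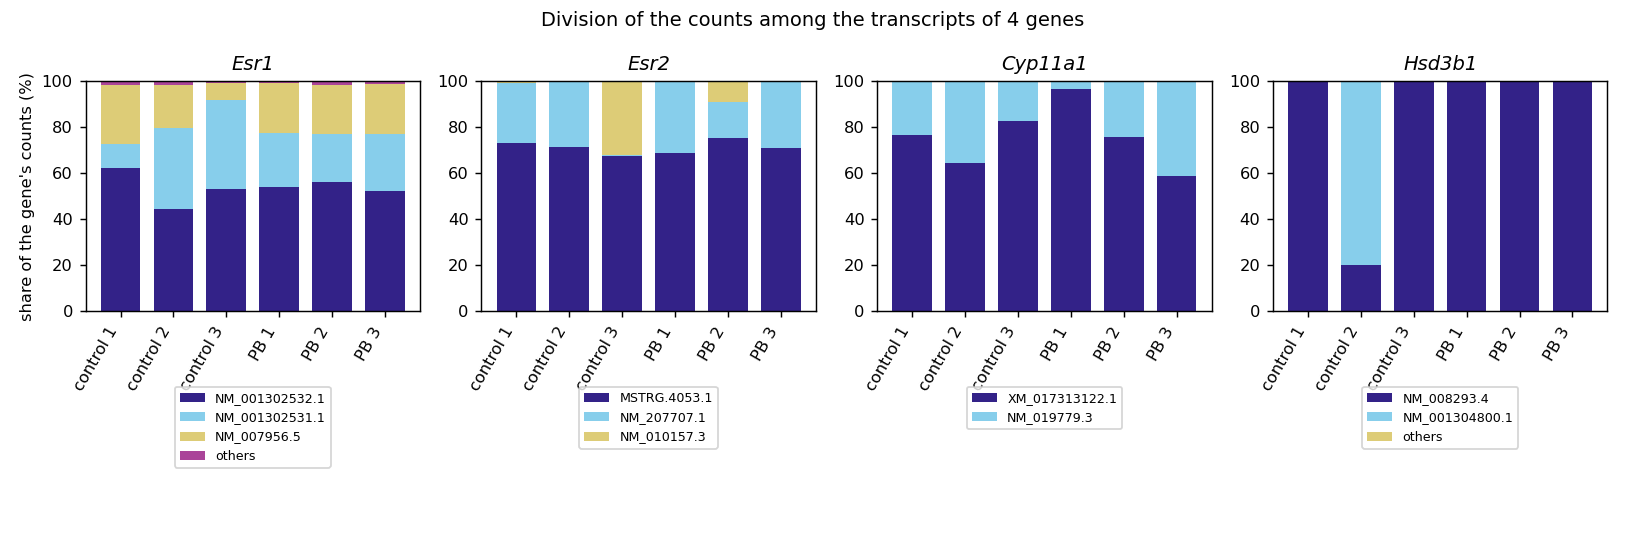
Share (%) of the counts of Esr1, Esr2, Cyp11a1 and Hsd3b1 given to each transcript in each pool, with transcripts under 1% of a gene's counts drawn as others. MSTRG.4053.1 holds 67.2% to 75.1% of Esr2 in all pools, and the second Hsd3b1 form appears in control 2 alone.

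Between the receptors, the level per length of Esr1 was 17.6 to 21.8 times that of the RefSeq transcripts of Esr2 in the 6 pools. Control pools had ratios of 18.0, 21.8 and 17.9 and PB pools had 20.2, 17.6 and 21.7, so the balance of the receptors overlapped between the groups.

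At the level of single transcripts, 27 of the 35 had counts and 17 passed the filter. None was called in edgeR, against 17 of 51227 transcripts (0.0332%) in all, and 1 had an unadjusted p under 0.05, against 3.56% of the tested transcripts (1.71% lower and 1.85% higher in PB). DESeq2 called 0 of the 22 to which it gave an adjusted p, against 1172 of 63278 transcripts (1.85%) in all. The 1 transcript was Esr1 XM_017313797.1, with 15, 39 and 31 counts in control and 6, 14 and 9 in PB. Its log2 fold change was -1.56 (SE 0.53, edgeR, FDR = 1.00), and it held 0.387% of the Esr1 counts. Transcript counts vary far more than gene sums, with a common coefficient of biological variation of 98.4% against 20.9%, and of the member transcripts 34 match a RefSeq transcript.

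The other genes of the pathway were taken from a list of 86 genes, of which 85 were in the data and 78 passed the filter. None was called by edgeR or by DESeq2. At an unadjusted p under 0.05 there were 2 higher and 5 lower in PB, which compares with 2.03% and 2.43% of all tested genes. The median log2 fold change of the list was -0.02. Groups did not overlap for 10 of the 78 genes, 3 higher and 7 lower, against 10.7% of the tested genes (5.1% higher and 5.61% lower).

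Among 8 genes of cholesterol supply, Soat1, which stores cholesterol as esters and had the highest mean CPM of this group (Tspo was higher per length, 55.0 against 41.4), was at 24017, 26871 and 20624 counts in control and at 19537, 17143 and 17401 in PB. Its means were 231 ± 12.8 and 171 ± 23.9 CPM (SD, n = 3), without overlap between the groups. The log2 fold change of -0.43 (SE 0.10) had the lowest p of the list, but with an FDR of 0.888 (edgeR) it did not pass the test. Of 5 electron donors, none had a p under 0.05. Por, which supplies CYP17A1 and aromatase with electrons, had the highest mean CPM (Cyb5a was higher per length, 109 against 69.96), with 116 ± 5.87 CPM in control and 116 ± 13.8 CPM in PB.

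Of the 22 other steroid enzymes listed, 16 were tested and 14 had a negative log2 fold change, with a median of -0.09, where 9586 of all 19435 tested genes were negative. Hsd17b4, which also acts in peroxisomal fat breakdown, had the highest mean CPM of this group, although Hsd17b10 was higher per length (159 against 57.4). It had 103 ± 7.61 CPM in control and 100.2 ± 1.65 CPM in PB. Hsd17b7, which acts in both estradiol and cholesterol synthesis, was at a log2 fold change of -0.20 (edgeR, FDR = 0.888). Hsd11b2, which inactivates glucocorticoids, had -0.17 (edgeR, FDR = 0.888). Both had an unadjusted p under 0.05 and neither passed the test, although the groups did not overlap for either gene.

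Of 6 receptors for trophic hormones and related genes, 5 passed the filter and Fshr did not. Prlr, the prolactin receptor, had the highest mean CPM of them, with 13.5 ± 1.42 CPM in control and 13.8 ± 1.59 CPM in PB. Mrap, which is not itself a receptor, was higher per length (7.82 against 2.02). Lhcgr, the receptor for luteinizing hormone, had 4.79 ± 0.396 and 4.48 ± 1.39 CPM, while Fshr had 0, 6 and 0 counts in control and 3, 0 and 0 in PB. Of 10 other steroid receptors and related proteins, Pgrmc1, a membrane-associated progesterone-binding protein, had the highest mean CPM with 168 ± 4.48 and 167 ± 6.06 CPM. The orphan receptor Esrra was the only gene of this group with a p under 0.05 (log2 fold change -0.21, edgeR, FDR = 0.888).

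The transcription factors that control steroid enzyme genes covered a wide range of levels. Gata4 had 311 ± 22.9 CPM in control and 311 ± 20.0 CPM in PB, and Nr5a1, the orphan receptor that binds AGGTCA, had 160 ± 11.0 and 162 ± 6.75 CPM, while Nr5a2 had 4.55 ± 0.495 and 4.80 ± 0.405 CPM. Among 17 regulators, 11 had a positive log2 fold change (median 0.02), where 9849 of all 19435 tested genes were positive. Crem, which responds to cyclic AMP, had an unadjusted p under 0.05 and a log2 fold change of 0.24 with no overlap between the groups (edgeR, FDR = 0.888). Of 10 coregulators of estrogen receptors, 8 had a positive log2 fold change (median 0.06). Ncoa1 likewise had 0.11 (edgeR, FDR = 0.888), and Ddx5 had the highest mean CPM with 603 ± 13.9 CPM in control and 629.97 ± 39.4 CPM in PB. Of 8 genes known as estrogen targets from other tissues, 7 were tested and 6 had a negative log2 fold change (median -0.08). Over all 19435 tested genes, 9586 were negative. Igfbp4 had the highest mean CPM of them with 637 ± 16.2 and 598 ± 32.0 CPM, and Myb, with an unadjusted p under 0.05, had -0.52 with no overlap between the groups (edgeR, FDR = 0.888).

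**Figure D5:**
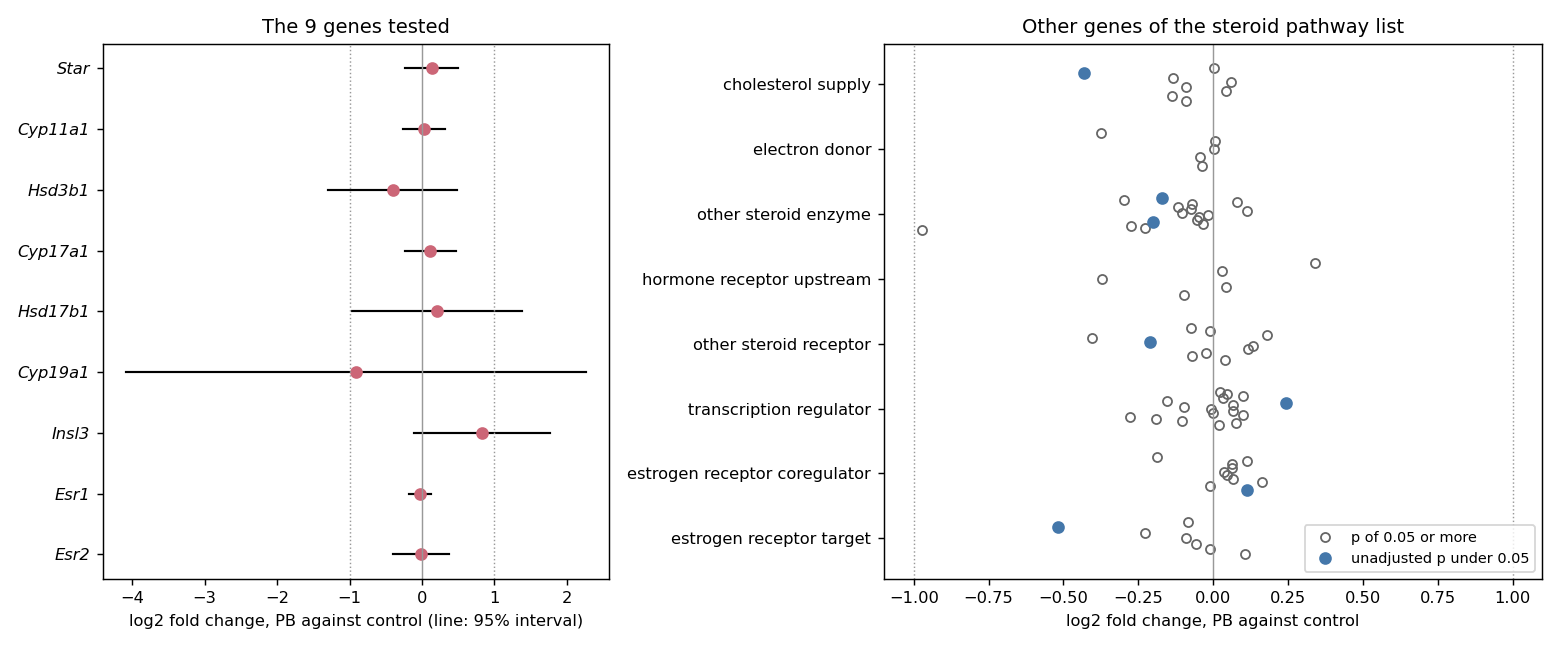
Log2 fold change of PB against control from edgeR for the 9 tested members with 95% intervals (left) and for 78 other pathway genes by role (right, filled where the unadjusted p is under 0.05), with dotted lines at a 2-fold change. The interval of Esr1 is the narrowest and that of Cyp19a1 the widest, and no gene on either side passed the test.

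Markers of neighbouring tissue were read beside these values, since the adrenal gland also expresses Star, Cyp11a1 and Hsd3b1. The defining enzymes of the adrenal cortex were near 0, with 0 to 9 counts of Cyp21a1, 0 to 6 of Cyp11b1 and 0 to 3 of Cyp11b2 in a pool. The list of 7 adrenal cortex genes summed to 64.0 to 70.8 CPM in control and 56.7 to 75.2 CPM in PB, and most of this was Akr1cl with 48.0 to 68.6 CPM. The rest of the list was present in every pool, with Mrap at 2.74 to 8.17, Akr1b7 at 1.10 to 1.64 and Mc2r at 0.542 to 0.988 CPM. The 6 genes of the adrenal medulla summed to 2.50 to 2.97 CPM in control and 2.30 to 6.24 CPM in PB. In PB 1, where Hsd3b1 was lowest at 14.8 CPM, the cortex list was at its highest and the medulla list at its lowest. The part of adrenal tissue in these values was not tested. Of the 7 fetal Leydig genes, 5 are members of the set described here, so their sum of 61.8 to 66.9 CPM in control and 37.0 to 67.2 CPM in PB mainly repeats Hsd3b1.

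As a description of pattern, the genes with the highest Pearson correlation of log2 CPM with each member over the 6 pools were looked up among 14781 or 14782 genes with at least 1 CPM. Mrps21 (0.996) and H2afj (0.995) came first for Hsd3b1, Ggnbp1 (0.997) and Arfrp1 (0.997) for Insl3, and Uqcr10 (0.995) and Cenpn (0.988) for Esr1. Rest (0.987) and Sox12 (0.986) came first for Esr2, Ints12 (0.990) and Elp5 (0.979) for Star, Dhx9 (0.985) and Hap1 (0.967) for Cyp11a1, and Tmem177 (0.996) and Hfe (0.974) for Cyp17a1. For Hsd17b1 they were Gm527 (0.987) and Gm12942 (0.967), and for Cyp19a1 they were Samd1 (0.994) and Bcl7a (0.986). These are the extremes of many correlations over 6 points that share the same libraries, and for Hsd3b1 and Insl3 a single pool sets most of the pattern.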

How the data were processed

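RNA was sequenced from 3 control and 3 PB pools of E15.5 ovaries, with polyA RNA and a directional library kit. Per the methods, the authors mapped reads to the mm10 build (HISAT2 2.1.0), and StringTie 1.3.5 built a merged transcriptome guided by NCBI RefSeq. The deposited matrix holds raw read counts, computed by prepDE from transcript coverage for 114412 transcripts, so reads of a locus are divided among its transcripts. The authors' comparison made with DESeq2 1.30.0 (fold changes and p-values) was not used, nor were its 6 columns of normalized values, and only its gene names were taken. The 1493 transcripts without a gene name held 3.05% to 4.49% of the counts of a pool and entered no gene sum.

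Counts were summed per gene name, scaled by TMM, filtered with filterByExpr (minimum count 10, minimum total 15) and tested across 19435 genes and 51227 transcripts with the quasi-likelihood F-test of edgeR 4.0.16 (R 4.3.3, limma 3.58.1, the data.table package in version 1.17.8) with Benjamini-Hochberg adjustment. Standard errors were the log2 fold change divided by the square root of F. Intervals are at 95%, and a count of 0 allows up to 3 counts. DESeq2 1.42.0 was an alternative, as were its size factors, no filter, an FDR of 0.1, a stricter filter (10 counts in each of the 3 pools of 1 group), a replicate block, each pool left out, RefSeq-matching transcripts only, grouping by StringTie locus and the length of the longest transcript. The 6 transcript shares were tested by exact permutation (adjusted p = 1 for each). The p-values set the difference between the groups against the variation between pools, and no sequencing batch is named in the sources used here. The RNA-seq methods do not state how litters were divided over the pools.

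The members and the gene lists were chosen with earlier results of these data known. The genes named are all members, their transcripts with at least 10% of a gene's counts or an unadjusted p under 0.05, the pathway genes with an unadjusted p under 0.05, the gene with the highest mean CPM of each pathway group, the 2 genes most like each tested member, genes that overlap a member, and markers at 0 or moving with a member. Lhcgr, Fshr, Nr5a1, Nr5a2 and the genes set beside others per length were named after their values were seen.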

Additional observations from a re-analysis of the deposited data

How the results depend on the processing

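No member gene, pathway gene or member transcript was called under any alternative run. Insl3 had an unadjusted p under 0.05 only without PB 1 or without PB 2 (edgeR, FDR = 0.985 and 0.401). Grouping by locus joined Insl3 with the more abundant Jak3, and the log2 fold change of that locus was -0.043. With each pool left out in turn, log2 fold changes that changed sign ranged from -0.033 to 0.083 for Cyp11a1, from -0.00035 to 0.22 for Cyp17a1, from -0.36 to 0.57 for Hsd17b1, from -0.058 to 0.024 for Esr1 and from -0.18 to 0.063 for Esr2. They ranged from -0.70 to -0.06 for Hsd3b1, from -2.23 to -0.19 for Cyp19a1 and from 0.29 to 1.04 for Insl3. With the length of the longest transcript, levels were scaled to the total of the named genes. They are therefore not on the scale of the main run. Star has only 1 transcript, and its level still went from 3.13 to 5.03. The level was 2.96 for Cyp11a1, 50.2 for Hsd3b1, 4.92 for Cyp17a1, 2.91 for Insl3, 18.0 for Esr1 and 3.35 for Esr2. This placed Esr2 below Star and Cyp17a1, because the short intronic fragment then counts over the length of the receptor mRNA.

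Same-numbered pools did not deviate together in every pair (r = 0.101, 0.182 and -0.00406), so the numbers were not taken to pair the pools. With the replicate number as a block, 0 members, 0 pathway genes and 0 member transcripts were called. Among all genes, the count of calls was 3 in the edgeR fit, 11 with DESeq2, 0 with the replicate block, 8 with RefSeq-matching transcripts only and 3 to 9 with a pool left out. Among all transcripts it was 17, 1172 with DESeq2, 39 with the stricter filter, 51 at an FDR of 0.1, 0 with the block and 0 to 19 with a pool left out. Depth limits Hsd17b3 and Cyp19a1, which had at most 10 and 27 counts in a pool.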
